A study of Homo sapiens with 9 samples.

Results

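The mRNAs of 9 human enzymes that make serine and pass its carbon through folate were followed in SW620 cells, an established human line derived from a metastatic colon adenocarcinoma. Members were the rows of the raw count table whose gene symbol was PHGDH, PSAT1, PSPH, SHMT1, SHMT2, MTHFD1, MTHFD2, MTHFD1L or ALDH1L2. All 9 were present among 28307 rows, and all 9 passed the filter on low counts that left 15619 genes for testing. The cells, all labelled wild type, were kept without attachment in a defined DMEM/F12 medium supplemented with N2, insulin, basic FGF and EGF. For 48 h they were given streptomycin (SM) at 120 µM, dihydrostreptomycin (DSM) at 120 µM or no drug, with 3 biological replicates per group, so that 9 poly(A) RNA libraries were compared. DSM differs from SM, an aminoglycoside that binds bacterial ribosomes, by an alcohol in place of the aldehyde on its streptose ring. Replicates carry the numbers 1 to 3 in every group, the labels leave unsaid what libraries of one number share, and all results come from 1 cell line.

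Serine is built in the cytosol from the glycolytic intermediate 3-phosphoglycerate: PHGDH oxidizes it, PSAT1 adds the amino group and PSPH removes the phosphate. The hydroxymethyltransferases SHMT1 in the cytosol and SHMT2 in mitochondria then cleave serine to glycine and load its side-chain carbon onto tetrahydrofolate. In mitochondria MTHFD2 oxidizes that unit, MTHFD1L releases it as formate and ALDH1L2 can oxidize it to carbon dioxide with formation of NADPH, while MTHFD1 takes formate back into folate in the cytosol for purines, thymidylate and methionine. Proliferating tumour cells often carry high levels of PHGDH, PSAT1, SHMT2 and MTHFD2, and ATF4, the transcription factor of the amino acid and integrated stress responses, is known to activate several of these genes.

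Libraries held 39315662 to 65562227 counts and 18316 to 19613 detected genes, and their TMM factors lay between 0.981 and 1.02. Of 12 colon epithelium markers 10 averaged at least 1 CPM (counts scaled to the library's size), with KRT8 at 6445, VIL1 at 463, EPCAM at 436 and LGR5 at 49.0 CPM, while KRT20 averaged 0.274 and CDX1 0.00211 CPM. Among markers of other cells, the fibroblast genes COL1A1 and LUM averaged 9.55 and 8.99 CPM, while COL3A1 and DCN were at 0 in all libraries. Of the leukocyte genes CD68 averaged 17.1, LYZ 6.44 and PTPRC 0.0402 CPM, and of the endothelial genes VWF averaged 2.19 CPM.

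Per kilobase of transcript, SHMT2 was the most abundant of the 9 mRNAs in untreated cells, at 206 ± 42.1 CPM per kb (SD, n = 3 here and below). PSAT1 at 101 ± 33.8 and MTHFD1 at 94.6 ± 4.25 CPM per kb followed, and these neighbours did not differ beyond their spread. PHGDH at 53.8 ± 29.5, MTHFD2 at 45.9 ± 10.3 and MTHFD1L at 45.6 ± 5.86 CPM per kb overlapped, as did PSPH at 33.0 ± 3.70 CPM per kb with PHGDH. SHMT1 had a lower mean, 22.1 ± 0.568 CPM per kb, which the range of PHGDH over the 3 libraries, 19.7 to 71.2 CPM per kb, covered. ALDH1L2 was lowest at 0.606 ± 0.372 CPM per kb. The genes lie on chromosomes 1 (PHGDH), 9 (PSAT1), 7 (PSPH), 17 (SHMT1), 12 (SHMT2 and ALDH1L2), 14 (MTHFD1), 2 (MTHFD2) and 6 (MTHFD1L). Lengths were those of the longest principal GENCODE v29 transcript, which these cells need not use.

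Within each group the library numbered 1 was the lowest for most of these mRNAs and made up most of their spread. PHGDH had 62.4, 219 and 220 CPM in SM cultures 1 to 3, 50.6, 166 and 160 CPM in DSM cultures and 50.9, 182 and 184 CPM in untreated cultures. The 3 libraries numbered 1 were the 3 lowest of the 9, and the ranges of the treatment groups overlapped. PSAT1 had 139, 312 and 318 CPM in SM cultures, 139, 240 and 224 CPM in DSM cultures and 135, 264 and 262 CPM in untreated cultures. ALDH1L2, at 79 to 464 counts per library, had 1.88, 7.49 and 8.43 CPM in SM cultures, 1.42, 6.07 and 5.33 CPM in DSM cultures and 1.38, 5.71 and 6.64 CPM in untreated cultures. MTHFD2 had 159, 279 and 268 CPM in SM cultures, 153, 226 and 203 CPM in DSM cultures and 152, 234 and 228 CPM in untreated cultures. SHMT1 instead stayed between 47.9 and 55.4 CPM, and MTHFD1 between 274 and 318 CPM, in all 9 libraries.

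**Figure D1:**
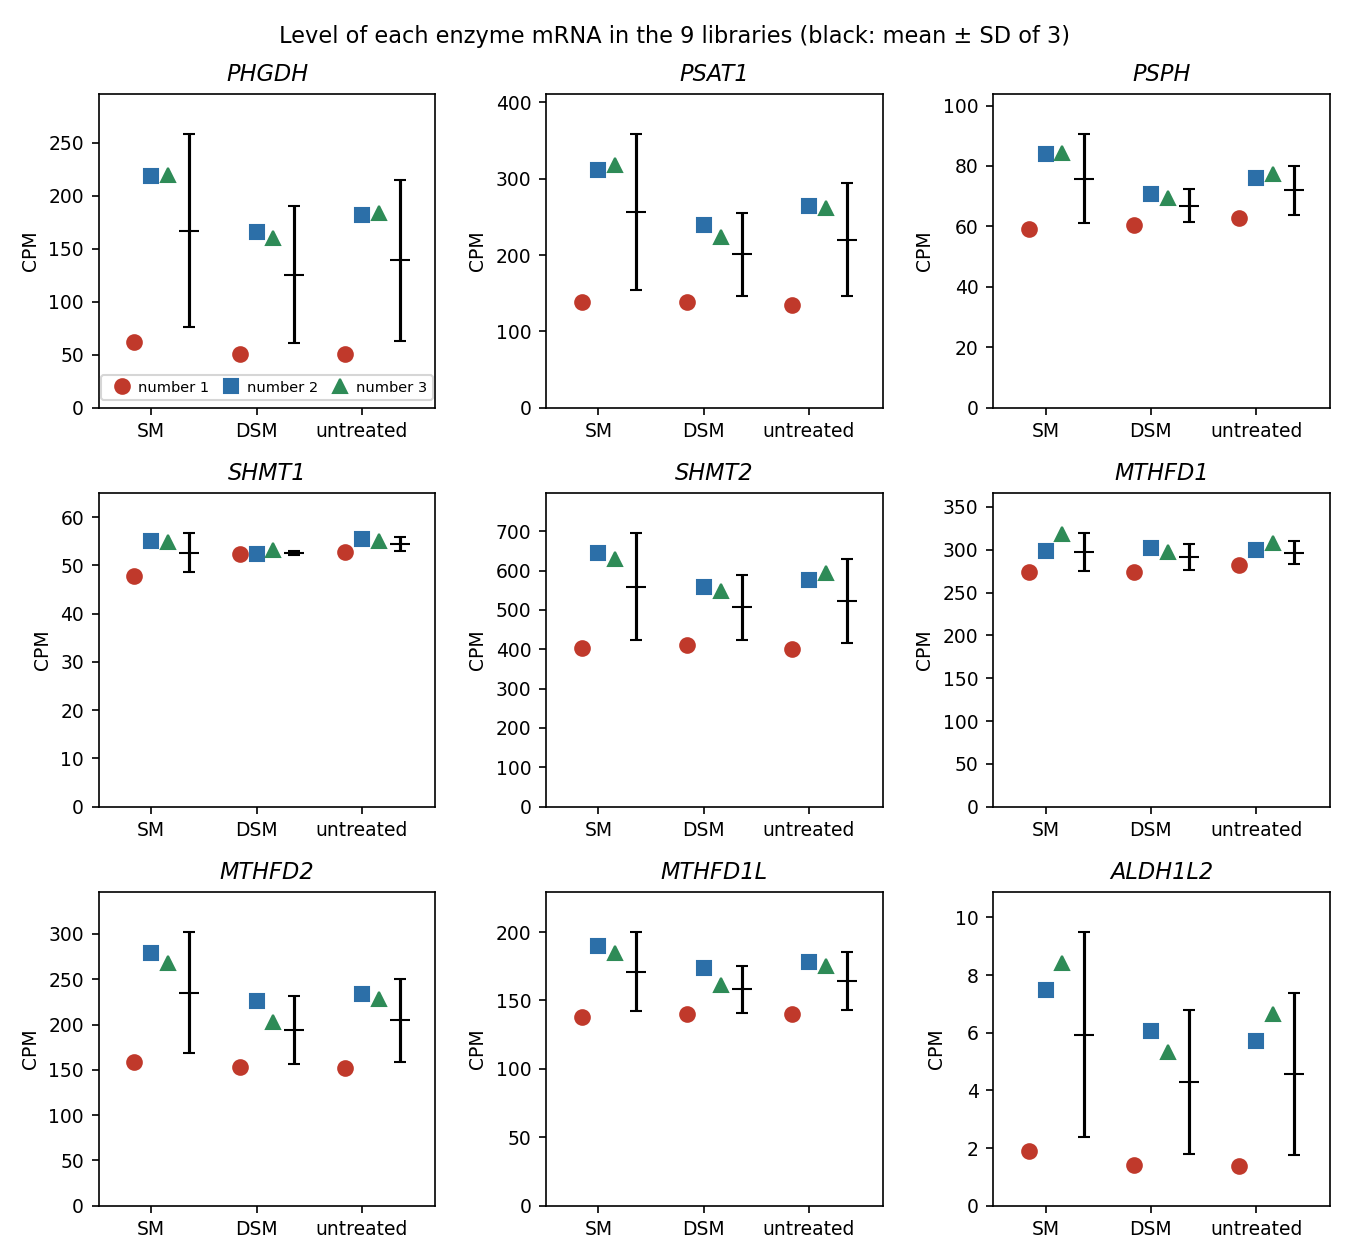
TMM-scaled CPM of each enzyme mRNA (vertical axis, starting at 0) in each library of the SM, DSM and untreated groups (horizontal axis), with symbols for the replicate number and black bars for the mean and SD of 3. PHGDH, PSAT1 and ALDH1L2 were lowest in the libraries numbered 1 of all 3 groups, whereas SHMT1 and MTHFD1 were nearly level.

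The promoters of 5 members are shown, from those with an entry, to set PHGDH, PSAT1, MTHFD2 and MTHFD1L, which were lower in the libraries numbered 1, beside SHMT1, which was nearly level. RefSeq promoter entries on GRCh38.p14, from 250 bases before the start to 50 after it, were found for 6 of the 9 members; PSPH, SHMT2 and ALDH1L2 had none. Capitals mark matches on either strand to TGATGNAA (the letters of the composite element that ATF4 binds), CACGTG (the E-box that MYC binds) and CCAAT (bound by NF-Y). The windows lie at chr1:119711684-119711983 on the plus strand for PHGDH, chr9:78296875-78297174 on the plus strand for PSAT1, chr2:74198365-74198664 on the plus strand for MTHFD2, chr6:150866236-150866535 on the plus strand for 1 of the starts of MTHFD1L, and chr17:18363501-18363800 on the minus strand for SHMT1. They are written 5′ to 3′ on the gene's strand.
PHGDH: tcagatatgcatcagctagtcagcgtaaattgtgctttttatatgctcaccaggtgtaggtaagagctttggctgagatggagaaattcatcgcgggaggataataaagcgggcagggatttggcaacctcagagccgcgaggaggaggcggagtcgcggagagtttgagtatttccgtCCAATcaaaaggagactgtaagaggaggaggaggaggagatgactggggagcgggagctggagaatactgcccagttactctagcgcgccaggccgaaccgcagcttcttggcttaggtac
PSAT1: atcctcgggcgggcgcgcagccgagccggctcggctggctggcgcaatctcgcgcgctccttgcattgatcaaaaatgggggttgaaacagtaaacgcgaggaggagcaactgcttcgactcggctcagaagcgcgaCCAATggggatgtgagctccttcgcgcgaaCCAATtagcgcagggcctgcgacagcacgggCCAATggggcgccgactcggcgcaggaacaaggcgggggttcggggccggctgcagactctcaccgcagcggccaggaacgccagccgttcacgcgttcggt
MTHFD2: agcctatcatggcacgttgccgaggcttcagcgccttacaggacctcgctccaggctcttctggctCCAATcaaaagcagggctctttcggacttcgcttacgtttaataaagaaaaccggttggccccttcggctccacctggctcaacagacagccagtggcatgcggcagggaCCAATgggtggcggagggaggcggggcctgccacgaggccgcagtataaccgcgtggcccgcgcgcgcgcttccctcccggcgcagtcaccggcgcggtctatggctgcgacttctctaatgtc
MTHFD1L: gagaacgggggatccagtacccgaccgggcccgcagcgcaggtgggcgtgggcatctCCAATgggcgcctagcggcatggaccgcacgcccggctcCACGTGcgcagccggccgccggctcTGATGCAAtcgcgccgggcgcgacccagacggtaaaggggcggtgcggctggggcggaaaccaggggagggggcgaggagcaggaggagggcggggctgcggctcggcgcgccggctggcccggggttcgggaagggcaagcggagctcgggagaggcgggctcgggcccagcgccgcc
SHMT1: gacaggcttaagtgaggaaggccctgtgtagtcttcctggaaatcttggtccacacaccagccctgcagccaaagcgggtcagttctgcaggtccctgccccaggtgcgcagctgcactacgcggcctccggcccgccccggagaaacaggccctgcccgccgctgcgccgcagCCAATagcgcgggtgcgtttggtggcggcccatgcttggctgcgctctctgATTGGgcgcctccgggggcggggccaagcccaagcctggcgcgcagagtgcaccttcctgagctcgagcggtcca
CCAAT occurred in at least 1 entry of each of the 6 members and in 34.6% of 35116 promoter entries searched; MTHFD1L has 4 entries, and its most distant start held none of the 3 motifs. PSAT1 held 3 matches, whose first bases lie at -113, -83 and -52 from the start, MTHFD2 held 2 at -184 and -74, and PHGDH held 1 at -71. SHMT1 held 2, at -76 and, on the other strand, at -25. MTHFD1L held TGATGCAA at -129, a motif found in 3.62% of all promoters, and CACGTG at -154, found in 7.26%; of the other 5 members MTHFD1 held CACGTG and none held TGATGNAA in this window. No match overlapped another, and a match is a description of the letters only.

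SM against untreated cells raised 3 of the 9 mRNAs and lowered none, when libraries were compared within replicate numbers. These were PHGDH, the first enzyme of serine synthesis, MTHFD2, the mitochondrial methylene-tetrahydrofolate dehydrogenase, and ALDH1L2, the mitochondrial formyl-tetrahydrofolate dehydrogenase. In the same test 1.20% of all genes were higher and 1.54% lower, 2.74% in all (edgeR quasi-likelihood test with the replicate number in the fit, Benjamini-Hochberg adjusted p under 0.05 over 15619 genes). The median log2 fold change was 0.09 over the 9 members and 0.00 over all genes, and 7 members were positive. In RNA from whole cultures, fewer cells that express a gene and less RNA per cell cannot be told apart.

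The mean of PHGDH was 167 ± 90.5 CPM in SM cultures and 139 ± 76.4 CPM in untreated cultures, and the difference appeared once same-numbered libraries were set against each other. SM exceeded untreated by 22.5% in pair 1, 19.8% in pair 2 and 19.4% in pair 3, a log2 fold change of 0.27 ± 0.04 (SE; adjusted p = 4.17e-05 by edgeR). For ALDH1L2 the excess was 35.9%, 31.3% and 26.9% in pairs 1 to 3, with a log2 fold change of 0.38 ± 0.10 (SE; edgeR adjusted p = 0.0445). For MTHFD2 it was 5.04%, 18.8% and 17.5%, with a log2 fold change of 0.19 ± 0.04 (SE; edgeR adjusted p = 0.0201), so the pair numbered 1 was the smallest. PSAT1, the aminotransferase, was likewise lowest in pair 1, at 3.25%, 18.3% and 21.4%, and did not pass (0.20 ± 0.08; edgeR adjusted p = 0.301).

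The other 5 enzymes did not pass the test with SM. The log2 fold changes, with 95% intervals, were 0.09 (0.00 to 0.17) for SHMT2, 0.07 (-0.03 to 0.16) for PSPH, 0.05 (-0.02 to 0.13) for MTHFD1L, 0.00 (-0.07 to 0.07) for MTHFD1 and -0.05 (-0.14 to 0.03) for SHMT1. Without the replicate number in the fit no member was called (adjusted p = 1.00 for each of the 3 above by edgeR), and 0.0192% of all genes were higher. PHGDH was called by edgeR without any 1 of the 6 SM and untreated libraries (adjusted p at most 0.00337) and was the 1 member called by DESeq2. Without any 1 of SM 2, SM 3 or the 3 untreated libraries it was also the 1 member called. MTHFD2 then lay at 0.14 to 0.20 (edgeR adjusted p 0.0915 to 0.192) and ALDH1L2 at 0.33 to 0.48 (0.0635 to 0.341). Without SM 1, 6 members were called, but so were 569 of all genes, the most of these 6 fits.

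**Figure D2:**
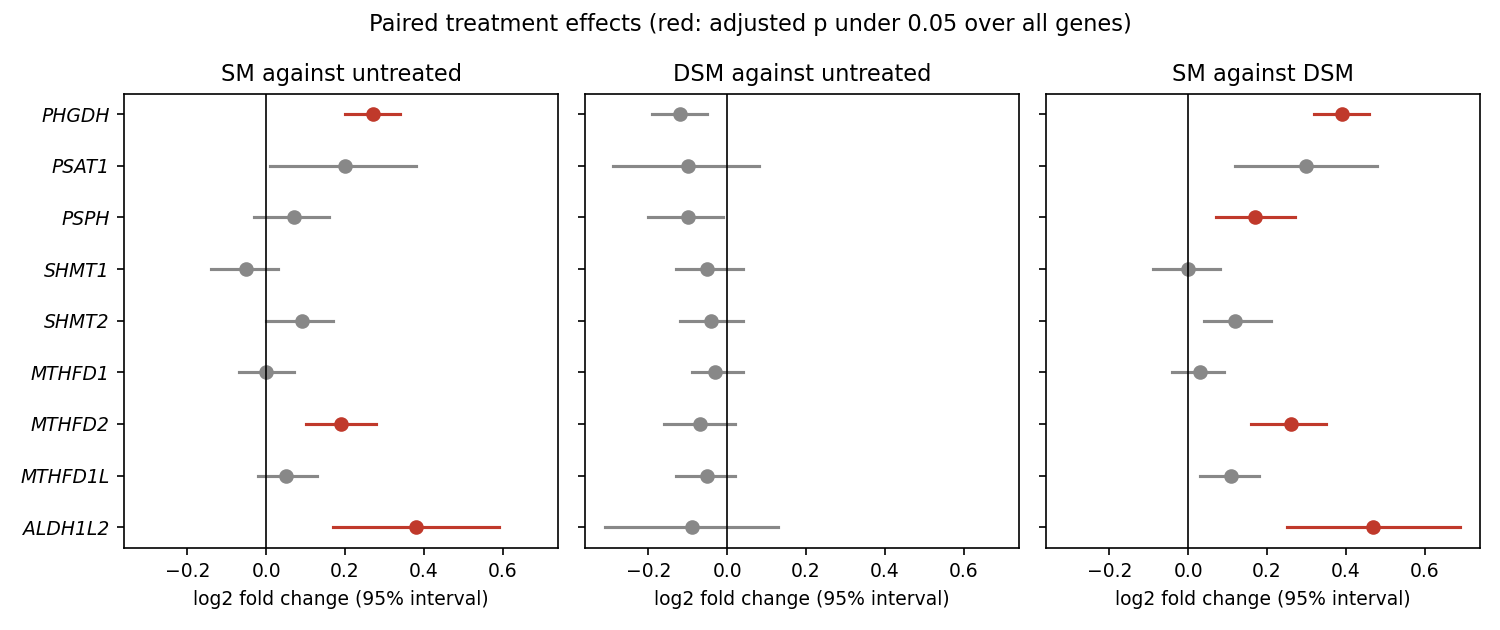
Log2 fold change of the 9 enzyme mRNAs with 95% intervals from the edgeR fit with the replicate number, for SM against untreated, DSM against untreated and SM against DSM. Red marks adjusted p under 0.05 and grey the rest. Red are PHGDH, MTHFD2 and ALDH1L2 for SM against untreated, those and PSPH for SM against DSM, and none for DSM against untreated.

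DSM against untreated cells changed none of the 9 mRNAs past the threshold, and 0.00% of all genes were called in either direction. By edgeR 650 of 15619 genes had an unadjusted p under 0.05, and DESeq2 and limma voom also called 0 genes. All 9 fold changes were negative but small, with a median of -0.07 against 0.00 over all genes. The mean of PHGDH was 126 ± 65.2 CPM in DSM cultures and 139 ± 76.4 CPM in untreated cultures, and within pairs DSM differed from untreated by -0.732%, -8.76% and -12.9%. Its log2 fold change of -0.12 ± 0.04 (SE; edgeR unadjusted p = 0.00235, adjusted p = 0.999) had the 22nd smallest p of all genes. PSPH, at -0.10 ± 0.05, was the other member with an unadjusted p under 0.05 by edgeR (0.0349; adjusted p = 0.999). This comparison and that of SM share the untreated libraries.

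The 2 compounds differed from each other at the same dose and time in 4 of the 9 mRNAs, all higher with SM: PHGDH, PSPH, MTHFD2 and ALDH1L2. Over all genes 1.73% were higher and 2.15% lower with SM than with DSM, 3.88% in all, by the same test, and 1 pair of compounds was compared. The median log2 difference was 0.17 over the members and 0.00 over all genes.

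For PHGDH, SM exceeded DSM by 23.4% in pair 1, 31.3% in pair 2 and 37.1% in pair 3 (log2 difference 0.39, 95% interval 0.32 to 0.46; edgeR adjusted p = 2.97e-07), the 7th smallest p of all genes. ALDH1L2 differed by 0.47 (0.25 to 0.69; edgeR adjusted p = 0.00985), with SM higher in each pair by 32.3%, 23.4% and 58.0%. MTHFD2 differed by 0.26 (0.16 to 0.35; edgeR adjusted p = 0.00125), and its pair numbered 1, at 4.17%, lay below the 23.4% and 31.9% of pairs 2 and 3. PSPH, the phosphatase of the last step of serine synthesis, had 59.0, 84.1 and 84.4 CPM in SM cultures against 60.5, 70.8 and 69.3 CPM in DSM cultures. It was thus lower with SM in the pair numbered 1 and higher in the other 2, with a difference of 0.17 (0.07 to 0.27; edgeR adjusted p = 0.0422).

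PSAT1, SHMT2 and MTHFD1L did not pass between SM and DSM, at 0.30 (0.12 to 0.48), 0.12 (0.04 to 0.21) and 0.11 (0.03 to 0.18) on the log2 scale, with edgeR adjusted p of 0.0952, 0.0801 and 0.114. SHMT1 and MTHFD1, the cytosolic enzymes of folate one-carbon transfer, had differences of 0.00 (-0.09 to 0.08) and 0.03 (-0.04 to 0.09), intervals that hold no difference of more than 0.09 on this scale. Without the replicate number in the fit no member and 0.00% of genes were called. Leaving out 1 library of these groups called 267 to 846 of all genes, the fewest without DSM 3 and the most without SM 1. Without SM 1 or DSM 1, 7 members were called; 2 were called without SM 2 (MTHFD2 0.23, adjusted p = 0.0571; PSPH 0.13, 0.228), SM 3 (ALDH1L2 0.42, 0.124; PSPH 0.12, 0.287) or DSM 3 (ALDH1L2 0.32, 0.237; PSPH 0.12, 0.325), and PSPH was lost without DSM 2 (0.15, 0.235), all by edgeR.

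**Figure D3:**
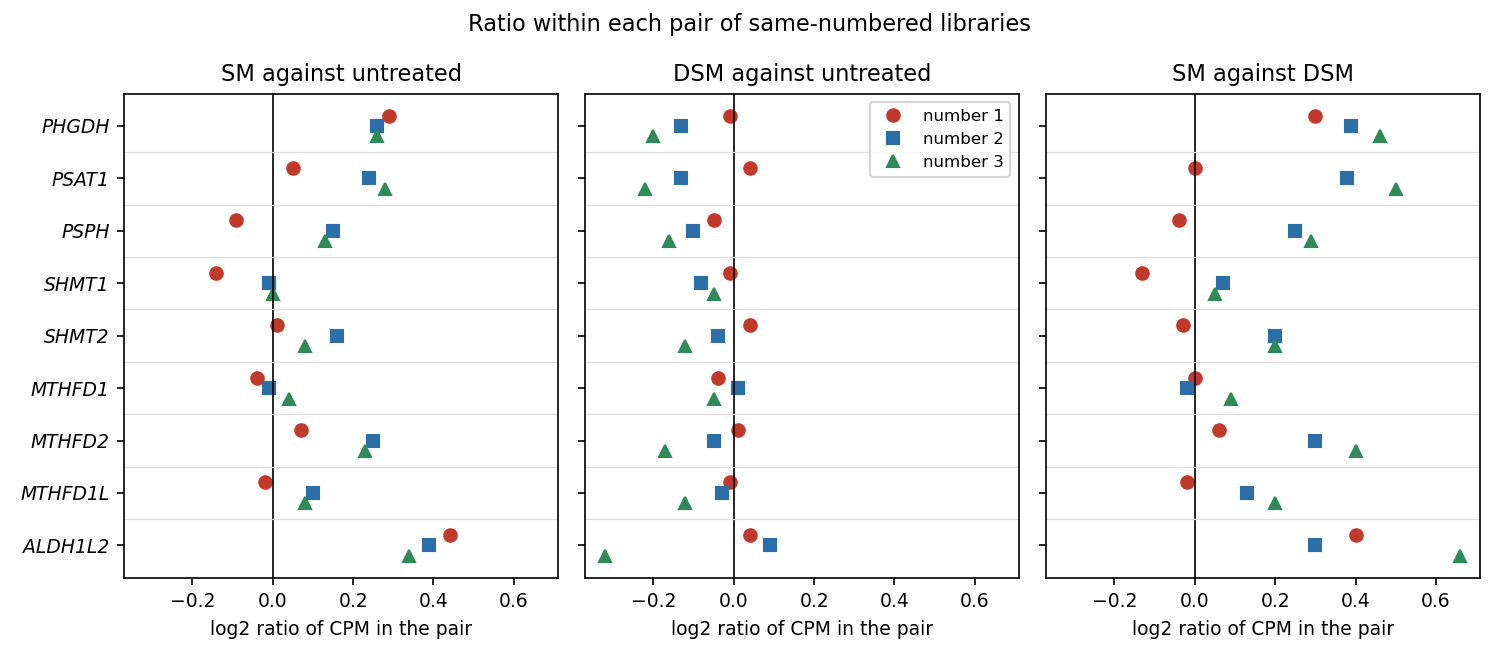
Log2 ratio of CPM within each pair of libraries that carry the same replicate number (horizontal axis) for each enzyme mRNA (rows), with 1 panel per comparison. For SM against untreated, PHGDH lay between 0.26 and 0.29 in all pairs, whereas PSAT1 was at 0.05 in pair 1 and at 0.24 and 0.28 in pairs 2 and 3.

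For each of the 9 mRNAs the fitted difference of the libraries numbered 1 from those numbered 2 and 3 exceeded the treatment effects in size. In it 8 of the 9 mRNAs were lower and none higher in number 1, against 20.3% of all genes lower and 21.7% higher, 42.0% in all, in the same fit. The median log2 difference was -0.54 over the members, 0.00 over all genes and, regardless of sign, 0.14 over all genes. The members and this split were chosen with earlier results of these data known, so the count is not independent evidence of its direction. Number 1 is a single replicate number whose libraries deviated together. SEs and p-values of this difference, here and below, measure the scatter left in the fit, not the spread between replicate numbers.

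In serine synthesis the difference was steepest at the first step. PHGDH averaged 54.6 ± 6.72 CPM in the 3 libraries numbered 1 and 189 ± 25.4 CPM in the 6 others (SD over libraries of all groups), that is 29.0% of their level, with a log2 difference of -1.78 ± 0.03 (SE; edgeR adjusted p = 1.11e-21). PSAT1 averaged 138 ± 2.43 CPM in number 1 and 270 ± 37.7 CPM in the others, or 50.9%, at -0.96 ± 0.07 (edgeR adjusted p = 1.31e-05). PSPH averaged 60.7 ± 1.87 CPM in number 1 and 77.0 ± 6.42 CPM in the others, or 78.9%, at -0.34 ± 0.04 (edgeR adjusted p = 5.11e-07). The gap therefore shrank along the order of the 3 steps, and the ratio of PHGDH to PSPH counts was 1.06, 2.60 and 2.60 in SM cultures, 0.836, 2.35 and 2.31 in DSM cultures and 0.813, 2.40 and 2.38 in untreated cultures.

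The mitochondrial folate enzymes were lower in number 1 and their cytosolic counterparts nearly level. ALDH1L2 reached 23.6% of the level of the others, at 1.56 ± 0.276 CPM in number 1 and 6.61 ± 1.17 CPM in the others (log2 difference -2.08 ± 0.10; edgeR adjusted p = 2.65e-13). MTHFD2 reached 64.4%, at 154 ± 4.09 CPM in number 1 and 240 ± 28.3 CPM in the others, SHMT2 68.5% and MTHFD1L 78.8% (log2 differences -0.62, -0.54 and -0.34; edgeR adjusted p = 4.95e-11, 1.47e-11 and 6.87e-09). MTHFD1 reached 90.9%, at 277 ± 4.51 CPM in number 1 and 304 ± 7.50 CPM in the others (-0.14 ± 0.03; edgeR adjusted p = 0.000372). SHMT1 reached 94.0% and was not called (-0.09 ± 0.04; edgeR adjusted p = 0.0506), though it was called without DSM 1 (-0.13, 0.0239), DSM 2 (-0.10, 0.0356) or DSM 3 (-0.10, 0.0489). The count ratio of SHMT2 to SHMT1 was 8.41, 11.7 and 11.5 in SM cultures, 7.87, 10.7 and 10.3 in DSM cultures and 7.60, 10.4 and 10.8 in untreated cultures, so each library numbered 1 lay below the 2 others of its group. For MTHFD2 to MTHFD1 the ratio was 0.581, 0.932 and 0.844 in SM cultures, 0.557, 0.747 and 0.682 in DSM cultures and 0.538, 0.781 and 0.741 in untreated cultures.

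Every library numbered 1 lay below all 6 others for the 8 called members, whereas 15.5% of all genes were so ordered; SHMT1 overlapped. Only 0.237% of genes had a larger difference than PHGDH in size, and 0.115% one larger than ALDH1L2. Between the libraries numbered 3 and those numbered 2 no member was called, at -0.08 to 0.07 on the log2 scale, while 1.84% of all genes were higher and 1.84% lower, 3.68% in all. Markers of other cells also differed by number: the summed level of 7 fibroblast markers was 25.3 to 27.1 CPM in number 1 and 12.7 to 19.8 CPM in the others, with 2 of the 7 (COL1A1 and LUM) averaging at least 1 CPM. For 4 endothelial markers, of which VWF alone averaged at least 1 CPM, it was 4.02 to 4.42 CPM in number 1 and 1.83 to 2.82 CPM in the others. For 6 leukocyte markers, of which CD68 and LYZ averaged at least 1 CPM, it was 20.8 to 23.1 CPM in number 1 and 22.2 to 28.8 CPM in the others, and for 12 epithelial markers 13625 to 14955 CPM in number 1 and 11377 to 12118 CPM in the others. Their part in the result was not tested.

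**Figure D4:**
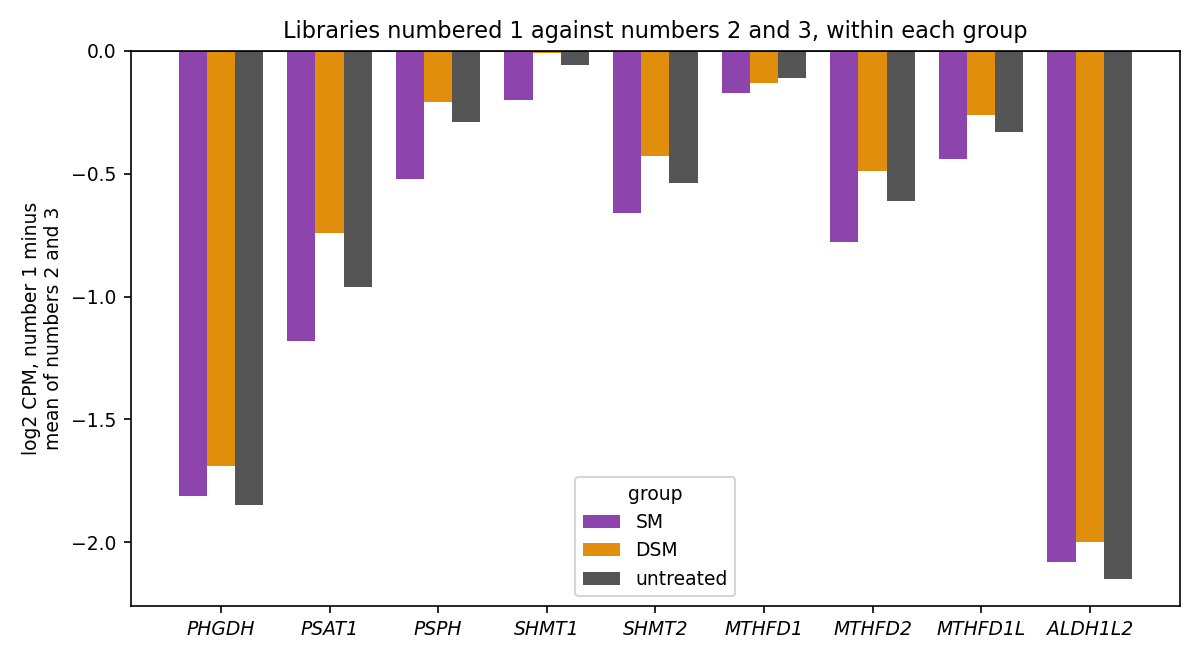
Log2 CPM of the library numbered 1 minus the mean of those numbered 2 and 3 (vertical axis), for each enzyme mRNA (horizontal axis) and each group (bars from 0, 1 value each, without error). PHGDH lay at -1.81 in SM, -1.69 in DSM and -1.85 in untreated cultures, and SHMT1 at -0.20, -0.01 and -0.06.

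The gap between number 1 and the other libraries was present in each treatment group, though not of one size. For PSAT1 it was -1.18 in SM, -0.74 in DSM and -0.96 in untreated cultures on the log2 scale. For MTHFD2 it was -0.78 in SM, -0.49 in DSM and -0.61 in untreated cultures, and for SHMT2 -0.66, -0.43 and -0.54 in the same order. For 7 members, PSAT1, PSPH, SHMT1, SHMT2, MTHFD2, MTHFD1L and MTHFD1, it was widest in SM cultures, whereas PHGDH and ALDH1L2 had it widest in untreated cultures. A term for whether the treatment effect differs between number 1 and the others, added after the data were seen, called 0 of 15619 genes in each comparison after adjustment. For SM against DSM all 9 estimates were below 0, that is, the excess with SM was smaller in number 1, with a median of -0.19 against 0.00 over all genes, and 4 had an unadjusted p under 0.05 by edgeR, as did 524 genes in all. PSAT1 was the largest of these, at -0.43 ± 0.09 (SE; edgeR unadjusted p = 8.05e-05, adjusted p = 0.628). With 1 library per group in number 1, each of these terms rests on 1 library numbered 1 from each group compared.

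**Figure D5:**
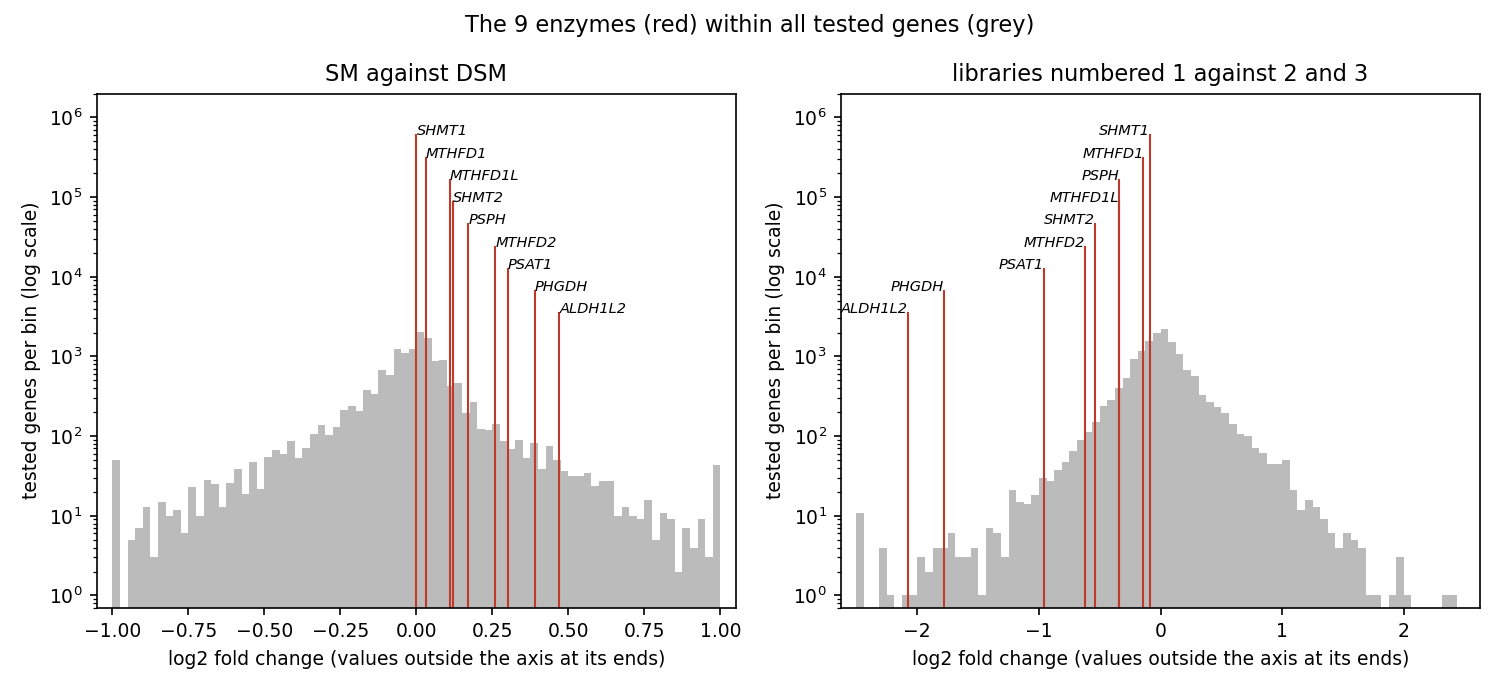
Distribution of log2 fold changes over 15619 tested genes (grey, number of genes per bin on a log axis) with the 9 enzymes as red lines, whose heights only separate the names. For SM against DSM (left) the enzymes lay between 0.00 and 0.47; for libraries numbered 1 against 2 and 3 (right) they lay between -2.08 and -0.09.

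Among all genes of at least 5 CPM, those whose profile over the 9 libraries was nearest to each member were named by the root mean square (RMS) difference of centred log2 CPM. These profiles include the difference of number 1, which exceeded the treatment effects for each member, so a near gene need not share a treatment effect. The own SDs were 0.991 for ALDH1L2, 0.477 for PSAT1, 0.321 for MTHFD2, 0.266 for SHMT2, 0.184 for PSPH and 0.173 for MTHFD1L. Nearest to PHGDH were SLC1A4, a neutral amino acid transporter that carries serine (RMS 0.0616), ADM2 (0.117) and PCK2, the mitochondrial phosphoenolpyruvate carboxykinase (0.125), against an SD of PHGDH itself of 0.856. ALDH1L2 was nearest to ASS1, the argininosuccinate synthase (0.0911), and then to PHGDH (0.153) and ADM2 (0.183). Nearest to SHMT2 were the transfer RNA synthetase genes AARS1 (0.0308), MARS1 (0.0316) and CARS1 (0.0467). MTHFD1L was nearest to the synthetase genes IARS1 (0.0180) and WARS1 (0.0309) and to AIMP2 (0.0360), a scaffold protein of the synthetase complex. MTHFD2 was nearest to XPOT, the exportin of transfer RNA (0.0447), ANKMY1 (0.0455) and the synthetase gene SARS1 (0.0465).

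PSAT1 was nearest to KIF21B (0.0388), LRATD2 (0.0748) and CST7 (0.0843), and PSPH to LMO4 (0.0407), CRNDE (0.0417) and DTD1 (0.0422). Because the RMS difference is not scaled to a gene's own spread, the nearly level pair could only have nearly level neighbours. These were NEK4, TMEM250 and DCK for SHMT1 (0.0229 to 0.0256, against its own SD of 0.0614). For MTHFD1 they were DYNLL2, ASH2L and USP37 (0.0208 to 0.0216, against its own SD of 0.0704). Among the members the closest were PSPH and MTHFD1L (0.0452) and SHMT1 and MTHFD1 (0.0486), and the farthest were SHMT1 and ALDH1L2 (0.953).

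The rest of the pathway was taken from 6 lists of 51 genes, of which 44 were tested. With SM against untreated 2 of the 44 were higher and 3 lower, with a median log2 fold change of -0.01, beside 1.20% of all genes higher and 1.54% lower. The 2 that were higher import amino acids. SLC1A4 had 7.97, 26.7 and 27.0 CPM in SM cultures and 6.65, 20.4 and 22.4 CPM in untreated cultures (log2 fold change 0.31 ± 0.06 SE; edgeR adjusted p = 0.00314). SLC6A9, the glycine transporter GlyT1, had 12.4, 30.6 and 30.0 CPM in SM cultures and 9.90, 22.9 and 21.8 CPM in untreated cultures (0.41 ± 0.06; edgeR adjusted p = 0.000272). The 3 that were lower were SFXN1 (-0.16, 0.0178) and SFXN3 (-0.14, 0.0303), sideroflexins that carry serine into mitochondria, and TYMS, thymidylate synthase (-0.15, 0.0214), all by edgeR. In SM against DSM, SLC1A4 (0.40, 0.000236) and SLC6A9 (0.41, 0.000224) were higher and SFXN3 (-0.14, 0.0315) and the folate receptor FOLR1 (-0.25, 0.00818) lower by edgeR, and DSM against untreated called none of the 44.

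The other lists held no called gene in the treatment comparisons. In purine synthesis PAICS and GART, in the methionine cycle AHCY and MAT2A, in glycine cleavage GCSH and DLD, and among serine and glycine side routes GLYCTK and GCAT were the most abundant. With SM against untreated their log2 fold changes were -0.03, 0.05, 0.01, 0.02, -0.07, -0.06, -0.13 and 0.07 in that order. In libraries numbered 1 against the others 7 of the 44 genes were higher and 20 lower, with a median of -0.10, beside 21.7% of all genes higher and 20.3% lower. SLC1A4 (-1.69) and SLC6A9 (-1.14) were lower, as was MTR, methionine synthase (-0.26). SFXN1 (0.31), SFXN3 (0.27) and FOLR1 (0.35) were higher, the edgeR adjusted p of these 6 genes being at most 1.61e-06. CBS, at -2.65, is uncertain, since it had few counts and shares sequence with the near-identical CBSL.

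Of the regulators followed, ATF4 had 421, 726 and 688 CPM in SM cultures, 429, 560 and 537 CPM in DSM cultures and 413, 570 and 581 CPM in untreated cultures. ATF4 was lower in number 1 (-0.52 ± 0.06 SE; edgeR adjusted p = 4.35e-05). Neither SM against untreated (0.21, adjusted p = 0.158) nor SM against DSM (0.24, 0.0905) passed by edgeR. The difference of these effects between number 1 and the others did not pass either (SM against untreated -0.27, edgeR adjusted p = 0.999; SM against DSM -0.39, 0.694). MYC, a growth-promoting transcription factor, was higher with SM than in untreated cells (0.41 ± 0.04, edgeR adjusted p = 3.66e-07). It was also higher with SM than with DSM (0.41 ± 0.04, edgeR adjusted p = 2.97e-07) and lower in number 1 (-0.32, edgeR adjusted p = 5.81e-08). NFE2L2, the regulator of the oxidative stress response, did not pass by edgeR in these comparisons. It was at -0.06 (edgeR adjusted p = 0.109) in number 1 against the others, 0.08 (0.343) in SM against untreated and 0.06 (0.490) in SM against DSM. SM exceeded untreated by 4.66%, 4.86% and 6.50% in pairs 1 to 3.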

How the data were processed

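Poly(A) RNA of 9 SW620 cultures was extracted with TRIzol and sequenced from NuGEN Universal Plus libraries, per the labels' protocols. The deposited values used were raw counts, which the authors left without normalization. The tools cutadapt 3.4, TopHat2 2.1.1 and featureCounts 2.0.0 and the build hg38 are listed without roles, per the submitters' processing notes. How strand and multi-mapping reads were handled, and the annotation, is not given in the sources used here. The p-values measure the scatter between these cultures that was left after group and replicate number were fitted. Those of the fit without the replicate number also include the differences between numbers. Of the rows, 408 without a gene identifier were kept as named.

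The analysis used edgeR 4.0.16 in R 4.3.3 (quasi-likelihood F test, two-sided, robust, TMM scaling, filterByExpr by group with minimum count 10 and total 15, Benjamini-Hochberg over 15619 genes) in 1 fit of group and replicate number. The fit gives SEs and 95% intervals. CPM values are TMM-scaled, and log2 CPM for profiles used a prior count of 2. Deviations from group means of same-numbered libraries correlated at 0.227 to 0.582 in all 9 pairs, above 0.1, against -0.404 to 0.161 for different numbers. Libraries numbered 2 with those numbered 3 also exceeded 0.1, at 0.104 to 0.161, below every same-numbered pair. The numbers were taken to pair the libraries. Within each group no library was a duplicate of another (chi-square per degree of freedom 6.89 to 36.5 over the 9 pairs). Positions and promoters are RefSeq GRCh38.p14.

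Alternatives were no replicate number, DESeq2 size factors, library totals, no filter, DESeq2 1.42.0, limma 3.58.1 voom, numbers 2 and 3 alone, the 2 groups alone, and leaving out each library; an interaction term and a fit without robust estimation were added after the data were seen. Only the test of SM against untreated was checked on simulated data. These were drawn from the same model that was then fitted, so the check does not cover the other comparisons or departures from that model. Members and lists were chosen with earlier results of these data known. Named were all members, up to 4 called genes of each list or else its 2 most abundant, ATF4, NFE2L2 and MYC, and the 3 genes nearest to each member. Some genes of the lists are counted but not reported here by name.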

Additional observations from a re-analysis of the deposited data

How the results depend on the processing

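Of 675 values of single members under an alternative, 595 kept direction and call, 31 lost the call, 24 gained it and 25 reversed. Without the replicate block, SM against untreated called 3 genes and 0 members, and SM against DSM 0 genes and 0 members. The scatter in that fit includes the differences between replicate numbers. For SM against untreated, PHGDH was at 0.26 ± 0.68 (SE) in it and at 0.27 ± 0.04 with the block. What the replicate numbers share was not tested. With no filter on low counts SM called 701 genes and DSM 7. With numbers 2 and 3 alone, DSM called 1 gene and SM against DSM 7 members, including PSAT1 (0.44), SHMT2 (0.20) and MTHFD1L (0.17). The share of all genes that SM against DSM called in that fit is not reported here, so these 7 cannot be set against it. With the 2 groups alone, DSM called 4 genes and SM against DSM 394. DESeq2 called 1 member for SM against untreated. Reversed values were all near 0: MTHFD1 with SM at 0.00098 without the replicate block, 0.01 with library totals and 0.02 with numbers 2 and 3; SHMT1 for SM against DSM at 0.06 with numbers 2 and 3; and SHMT2 in number 3 against 2 at 0.01 with library totals and 0.00040 without the filter. By leaving out 1 library, values near 0 reversed within these ranges: SHMT1 -0.08 to 0.0025 and MTHFD1 -0.03 to 0.02 for SM; SHMT1 -0.03 to 0.05 and MTHFD1 -0.0041 to 0.04 for SM against DSM; ALDH1L2 -0.21 to 0.06 for DSM; and, in number 3 against 2, PHGDH -0.03 to 0.03, PSAT1 -0.10 to 0.05, PSPH -0.04 to 0.04, SHMT1 -0.02 to 0.03 and SHMT2 -0.02 to 0.04. It also gave 149 to 569 genes and 1 to 6 members for SM, 0 to 1 genes for DSM, 267 to 846 genes and 2 to 7 members for SM against DSM, 4749 to 6636 genes and 8 to 9 members for number 1, and 177 to 863 genes for number 3 against 2.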
